A study of Mus musculus with 26 samples.

Results

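The genes that make, package and receive the transmitter GABA were followed through RNA from the accumbens nucleus of mice that self-administered cocaine or saline. Members were chosen by symbol: Gad1, Gad2, Slc32a1, Gabra2, Gabra4, Gabrb1 and Gabrd, which are 7 of the 31735 genes counted in all 26 libraries. All 7 passed the filter on low counts, so every member was tested in each of 9 comparisons. Adult mice of the line Drd2-TRAP CP101 carried EGFP fused to the ribosomal protein Rpl10a under control of Drd2, on a background labelled FVB/N-Swiss Webster crossed to C57BL/6 for at least 9 generations. Polysomes were pulled down with monoclonal anti-EGFP antibodies, and their RNA was sequenced (translating ribosome affinity purification, TRAP).

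All animals had long access to intravenous self-administration. The 24 immunopurified libraries comprised 3 of saline animals, 5 of animals whose cocaine intake did not escalate (nonescalating) and 2 of animals whose intake did (escalating). A further 6 came from saline animals and 8 from nonescalating cocaine animals that had gone through withdrawal. Total input RNA was given by 1 saline and 1 nonescalating library. Doses, session lengths and the length of withdrawal were not given in the sources used here. Groups follow the sample titles; the description field of the 5 nonescalating libraries names withdrawal, so their label is in conflict. The tag is driven by Drd2, which striatal cholinergic interneurons also use, so the polysomes need not come from medium spiny neurons alone. Nothing in the labels says that libraries were from separate animals, and p-values here measure the spread between libraries.

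GABA is the main inhibitory transmitter of the striatum, and medium spiny neurons, which make up most of its cells, release it. Glutamate is converted to GABA by the decarboxylases GAD67 (Gad1), found through the whole cell, and GAD65 (Gad2), concentrated at nerve endings. The vesicular transporter VGAT (Slc32a1) loads it into synaptic vesicles. GABA-A receptors are pentameric chloride channels, most often built from alpha, beta and gamma subunits. In some receptors the delta subunit takes the place of gamma, and these lie outside synapses and pass a steady current. In medium spiny neurons the alpha4 and delta subunits are known for such tonic inhibition, and alpha2 for synaptic receptors.

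On GRCm38 all 7 genes are protein coding. Gad1 lies at chr2:70553072-70602014, Gad2 at chr2:22622205-22693874 and Slc32a1 at chr2:158610767-158615748, all on the plus strand. Gabra2 (chr5:70957597-71095849, minus strand), Gabra4 (chr5:71569749-71658308, minus strand) and Gabrb1 (chr5:71658113-72149037, plus strand) neighbour each other on chromosome 5, and Gabrd lies at chr4:155384980-155398112 on the minus strand. Gabra4 and Gabrb1 start head to head and share 46 exon bases, which are 0.756% of the Gabra4 exons and 0.332% of the Gabrb1 exons. The strand setting of the counts was not given, so reads of those bases cannot be assigned to either gene, nor can reads of Slc32a1 be told from those of the overlapping antisense gene Gm14205.

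Stretches upstream of the start sites of Gad1, Gad2 and Gabra4 are shown because the levels of these 3 genes varied together across libraries, as described further on. They come from the RefSeq promoter table (GRCm38.p6), stop before the first exon base of any gene, and are written 5′ to 3′ in the gene's direction. They cover chr2:70561879-70562041 (plus strand), chr2:22622077-22622204 (plus strand) and chr5:71658364-71658558 (minus strand). The start that RefSeq gives for Gad1 lies inside the GENCODE span above, which a longer transcript opens further upstream, so the Gad1 stretch is intronic in that transcript. The Gabra4 stretch lies in an intron of Gabrb1 and ends short of the GENCODE start of Gabra4 at 71658308. Capitals mark matches to motifs searched on both strands: TGACG, the core of cyclic AMP response elements, then CANNTG, known as an E-box, TATAAA, the core of many promoters, and CCGCCC, bound by Sp factors.
Gad1: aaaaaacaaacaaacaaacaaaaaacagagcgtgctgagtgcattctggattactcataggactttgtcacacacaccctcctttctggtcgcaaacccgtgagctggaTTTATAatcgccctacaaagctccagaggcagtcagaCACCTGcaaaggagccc
Gad2: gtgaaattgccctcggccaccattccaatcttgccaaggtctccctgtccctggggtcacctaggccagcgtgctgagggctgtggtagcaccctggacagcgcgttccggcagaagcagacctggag
Gabra4: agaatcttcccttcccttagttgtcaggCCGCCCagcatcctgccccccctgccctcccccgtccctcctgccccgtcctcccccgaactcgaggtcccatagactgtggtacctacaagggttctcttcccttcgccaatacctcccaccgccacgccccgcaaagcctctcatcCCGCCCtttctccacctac

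The Gad1 stretch of 163 bases held 1 TATAAA and 1 CANNTG match, which 7.78% and 52.1% of 32851 stretches of that length before gene starts also held. Those stretches are the first bases of each promoter window and were not cut at exons. The Gad2 stretch of 128 bases held none of the 4 motifs. The Gabra4 stretch of 195 bases held 2 CCGCCC matches, a motif found in 23.8% of stretches of that length, and its bases are 63.6% G or C against 46.6% for Gad1. No motif was common to the 3 stretches. These letters are a description of the windows and not of binding.

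Counts in genes ran from 1.54 to 17.5 M (M for 1000000 counts) per immunopurified library (median 3.27 M) and were 4.70 and 37.5 M in the inputs. Levels are given as CPM (counts per M, with TMM factors), and 3 counts correspond to 0.171 to 1.95 CPM in an immunopurified library. The summed level of 10 D2 neuron markers was 1369 to 10577.5 CPM in immunopurified libraries and 1518 and 2027 in the inputs, and 23 of 24 immunopurified libraries were above both. Nonescalating replicate 4 held the lowest sum, and its Drd2 was at 243 CPM against 279 and 392 in the inputs. A list of 13 endothelial and mural markers summed to 409 to 9973 CPM in immunopurified libraries against 441 and 212 in the inputs. Saline replicate 1, nonescalating replicate 4 and nonescalating withdrawal replicate 5 of library set 2 had the lowest median correlations with the other libraries and stand apart. Library numbers fall into 2 runs, called set 1 and set 2 here, and set 2 held withdrawal libraries alone. Set 1 libraries list 32657 genes each and set 2 libraries 32531, so the gene models used for counting may differ between sets.

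Gad2, encoding GAD65, was the most abundant of the 7 genes per kilobase of exon in 24 of 24 immunopurified libraries and in both inputs. Its level was 837, 1962 and 750.5 CPM in the 3 saline libraries, 1797, 853, 1856, 238 and 803 in the nonescalating ones and 1024 and 1624 in the escalating ones. After withdrawal the lowest, median and highest were 747, 1864 and 2780.1 CPM for saline and 682, 1465 and 2075 for nonescalating animals. The groups overlapped throughout, and the low value among the nonescalating libraries was that of replicate 4, which had few D2 markers. The inputs were at 1759 and 2493 CPM.

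Gad1, encoding GAD67, was read at 54.7, 272 and 123 CPM in saline, at 228, 155, 286, 125 and 134 in nonescalating and at 98.9 and 296 in escalating libraries. The saline withdrawal libraries had a lowest, median and highest level of 191, 317 and 389 CPM, and the nonescalating withdrawal libraries of 163, 248 and 498. Saline replicate 1 was the lowest of all 24, and every withdrawal library lay above it and above escalating replicate 1. Per kilobase, Gad2 exceeded Gad1 by a median of 7.58 times, from 2.48 in nonescalating replicate 4 to 19.9 in saline replicate 1 (mean 8.19 ± 3.38, SD, n = 24). Kilobases are of all exons joined, 7639 bases for Gad1 against 3601 in its longest transcript, so the ratio depends on the length used. In the inputs the ratio was 7.26 and 7.49, inside that range.

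Slc32a1, encoding the vesicular GABA transporter, was at 99.7, 281 and 83.7 CPM in saline and at 168, 88.5, 256, 12.4 and 78.2 CPM in nonescalating libraries. Escalating libraries were at 151 and 276 CPM. With withdrawal, the lowest, median and highest were 62.9, 145 and 185 CPM for saline and 49.8, 88.4 and 294 for nonescalating animals. Nonescalating replicate 4 was again the lowest, and the ranges of all groups overlapped. Per kilobase Slc32a1 exceeded Gad1 in 16 of 24 libraries, with a median ratio of 1.48, so the order of these neighbours varied from library to library. Their order also depends on the gene length used. Gad2 stood 5.27 times above Slc32a1 (median), higher in 24 of 24.

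Gabra4, the alpha4 subunit of extrasynaptic receptors, was at 9.43, 88.3 and 41.7 CPM in saline, at 63.5, 30.8, 52.6, 10.5 and 68.9 in nonescalating and at 43.0 and 61.3 in escalating libraries. With withdrawal the lowest, median and highest were 19.7, 112 and 148 CPM for saline and 23.7, 108 and 176 for nonescalating animals. Gabrd, the delta subunit that partners alpha4, was at 3.86, 93.2 and 34.6 CPM in saline and at 38.2, 15.2, 102, 1.87 and 20.5 in nonescalating libraries. The 2 escalating libraries were far apart, at 54.4 and 272 CPM. In saline withdrawal Gabrd ran from 8.74 to 82.9 CPM (median 37.3) and in nonescalating withdrawal from 12.97 to 73.2 (median 40.9). Gabrd rested on 5 counts in its lowest reading, nonescalating replicate 4, a counting error of 44.7%.

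Gabra2, the alpha2 subunit of synaptic receptors, was at 13.5, 29.1 and 15.02 CPM in saline, at 18.6, 24.7, 13.9, 38.6 and 17.1 in nonescalating and at 31.2 and 15.8 in escalating libraries. Its withdrawal libraries ran from 22.8 to 54.7 CPM (median 29.7) for saline and from 14.7 to 92.7 (median 38.2) for nonescalating animals. Nonescalating replicate 4 was the highest of its group for Gabra2 and the lowest of it for Gad1, Gad2, Slc32a1, Gabra4 and Gabrd. Gabrb1, the beta1 subunit, was at 20.8, 117 and 11.04 CPM in saline and at 100.2, 7.26, 100.3, 17.6 and 25.9 in nonescalating libraries. Escalating libraries were at 36.8 and 37.7 CPM, and withdrawal libraries ran from 6.24 to 87.6 (median 23.3) for saline and from 10.7 to 56.4 (median 21.5) for nonescalating animals. Saline replicate 3 and nonescalating replicates 1 and 3 held the 3 highest Gabrb1 values, well above the rest of their groups.

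**Figure D1:**
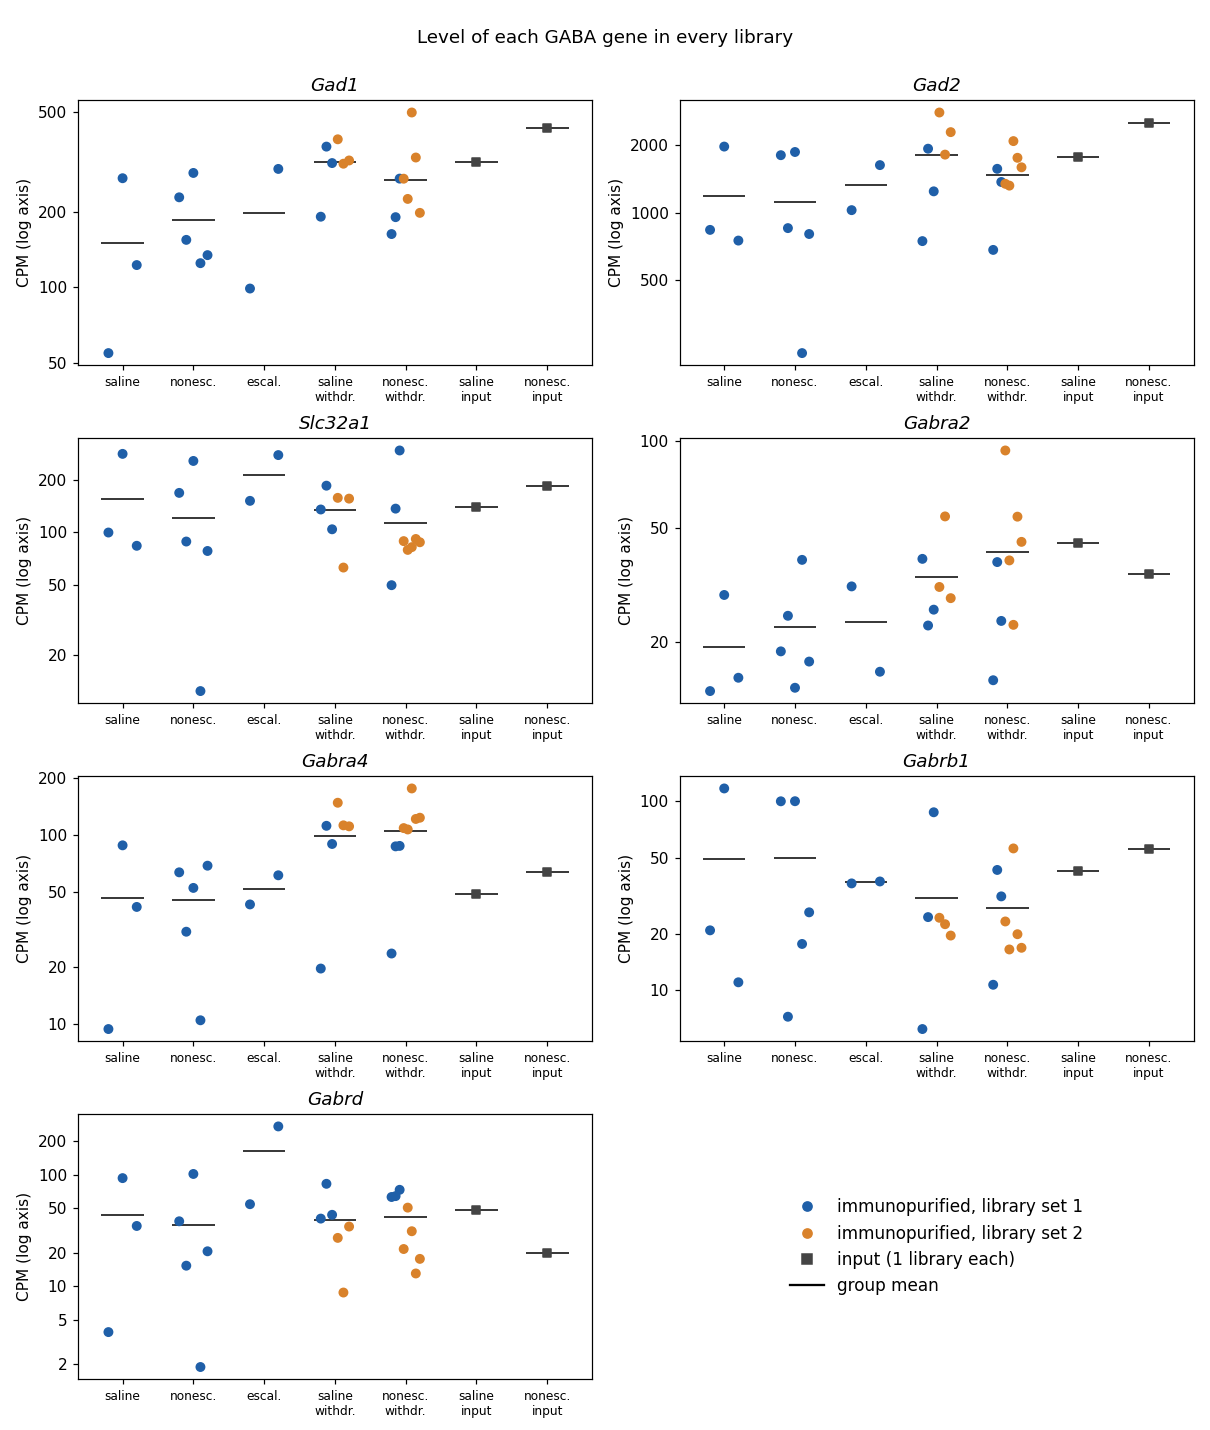
Level of each of the 7 genes in CPM (log axis) for every library by group, with blue points for set 1, orange for set 2, grey squares for inputs and a black line at each group mean. The immunopurified groups overlapped for every gene, and the spread within a group was often several-fold, as for Gabrd at 1.87 to 102 CPM in the nonescalating group.

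Per kilobase of exon, the median order over the 24 immunopurified libraries was Gad2, Slc32a1, Gad1, Gabrd, Gabra4, Gabra2, Gabrb1. This order rests on all annotated exons of a gene joined, which are 7639 bases for Gad1 and 2797 for Slc32a1. Their longest transcripts have 3601 and 2797 bases, so these ranks and ratios, and the shares below, depend on the length chosen. Gabrd and Gabra4 did not separate, with Gabrd above in 14 of 24 libraries and a median ratio of 1.04. Gabra4 exceeded Gabra2 in 21 of 24 libraries, 3.49 times by the median. It exceeded Gabrb1 in 24 of 24, by 1.03 to 16.7 times with a median of 6.73. In the inputs, which had no withdrawal, the ratio to Gabrb1 was 2.58 and 2.60. The 8 saline and nonescalating libraries without withdrawal had mean levels per kilobase of 7.51 CPM for Gabra4 and 3.62 for Gabrb1. Input means were 9.29 and 3.59, so a higher ratio than in input was not shown for these matched libraries. Gabrb1 was last in 16 of 24 libraries. Mean levels per kilobase were 242 CPM for Gad2, 47.7 for Slc32a1, 31.7 for Gad1, 17.5 for Gabrd, 13.01 for Gabra4, 4.08 for Gabra2 and 2.64 for Gabrb1.

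Within their subunit classes, the receptor genes were set against the other subunits by their share of the class's summed CPM per kilobase. Gabra4 made up 25.1% ± 9.79 (SD, n = 24) of alpha subunit signal in immunopurified libraries, against 14.4% and 12.9% in the inputs. It was the leading alpha subunit in 9 of 24 libraries and in 0 of 2 inputs. Its mean share among withdrawal libraries was above both inputs in each set (24.3% ± 10.01, n = 6, in set 1 and 31.5% ± 4.89, n = 8, in set 2). The inputs had no withdrawal, so these libraries are not matched to them. Gabra2 held 8.65% ± 4.69 (inputs 10.4% and 5.52%), and Gabra6, a cerebellar subunit, had no count in any immunopurified library.

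Gabrb1 was a minor beta subunit throughout, at 2.04% ± 1.59 of the class (SD, n = 24; inputs 2.62% and 2.45%). Gabrd made up 42.1% ± 21.97 of the gamma and delta class (inputs 42.6% and 23.7%), over a range of 6.31% to 77.9%. It led its class in 13 of 24 libraries. By library set the Gabrd share was 60.5% ± 11.3 (SD, n = 6) in set 1 withdrawal libraries and 28.2% ± 12.9 (n = 8) in those of set 2.

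**Figure D2:**
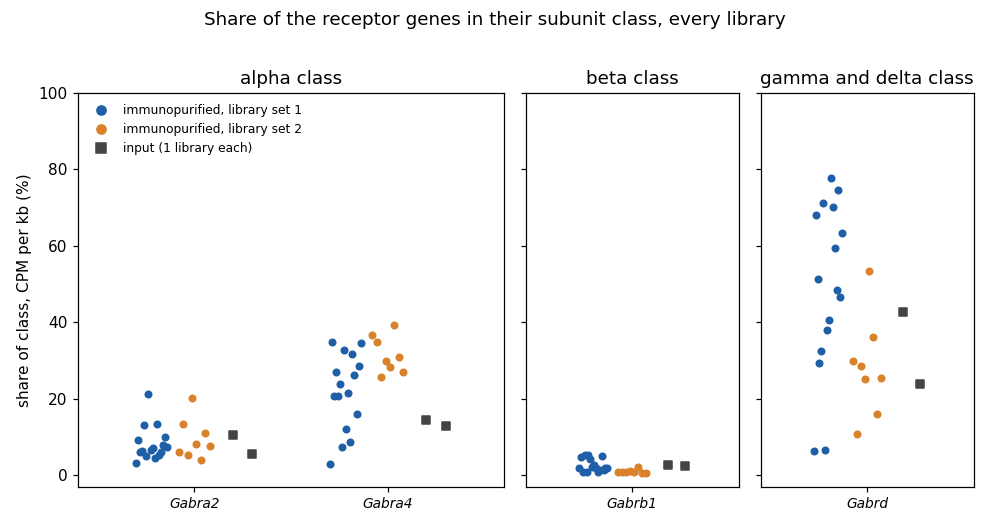
Share of Gabra2 and Gabra4, of Gabrb1 and of Gabrd in the summed CPM per kilobase of their subunit class (percent), 1 point per library, with blue for set 1, orange for set 2 and squares for inputs. Gabrb1 stayed between 0.552% and 5.28% of its class, whereas Gabrd ran from 6.31% to 77.9%.

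The comparison of immunopurified RNA with input asks which transcripts were enriched on tagged ribosomes. Gad1 was at 172 ± 81.3 CPM (SD, n = 8) in polysome RNA and at 315 and 433 in the inputs, and 8 of 8 immunopurified libraries lay below both inputs. Of all genes tested, 4.27% lay wholly below the inputs in this way. The log2 fold change was -1.14 (SE 0.49, 95% interval -2.17 to -0.11), with an unadjusted p of 0.0326 and a Benjamini-Hochberg adjusted p of 0.514 in the quasi-likelihood test of edgeR, so the difference did not pass. Gad2 differed by -0.89 (SE 0.56, adjusted p = 0.794) and was below both inputs in 5 of 8 libraries.

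The receptor subunits and the transporter did not separate from input either. Gabra2 lay below both inputs in 7 of 8 libraries, with a log2 fold change of -0.89 (SE 0.70). For Slc32a1 it was -0.26 (SE 0.71), for Gabra4 -0.29 (SE 0.74), for Gabrb1 0.03 (SE 0.92) and for Gabrd 0.34 (SE 1.10). The adjusted p was between 0.911 and 0.999 for these 5 genes by edgeR. Without the libraries that stand apart, the Gabra4 value turned to 0.05.

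Among the 7 members, 0 passed the threshold of 0.05 against input, where 0.255% of 14929 genes passed, all of them higher in polysomes. At an unadjusted p under 0.05 there was 1 member, Gad1, beside 8.27% of all genes, of which the lower ones were 2.22%. DESeq2 called 0 members. limma voom called 2, Gad1 at -1.45 (adjusted p = 0.00776) and Gad2 at -1.43 (adjusted p = 0.0262), in a fit that called 530 genes lower and in which the median gene stood at -0.14 rather than 0.07. Over 20 alternatives both genes stayed below 0, with adjusted p from 0.00776 to 1 for Gad1 and from 0.0262 to 1 for Gad2. The members had a median log2 fold change of -0.29, with 2 above 0 and 5 below, where 53% of all genes were above and 47% below.

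Markers of other cells moved with this contrast. All 11 tested markers of GABA interneurons, which also express Gad1, lay below 0 with a median of -2.36; the 14 listed genes summed to 75.8 to 345 CPM in the 8 immunopurified libraries, where 1 of them was at 0 throughout, and to 624 and 798 CPM in the inputs. The 13 endothelial and mural markers were above 0 in 13 of 13 with a median of 4.16, and 3 passed. Their sum was 1664 to 9973 CPM in these libraries, with none at 0 throughout. For comparison, the D2 neuron markers were above 0 in 10 of 10 with a median of 1.74, and 0 passed. The 9 tested markers of cholinergic interneurons were below 0 in 9 of 9 with a median of -1.45, and 0 passed. Of 9 markers of D1 neurons, the other medium spiny neurons and likewise users of Gad1 and Gad2, 8 were below 0. The remaining 1 was above 0 and passed, and the median over the 9 was -2.08. All 9 summed to 217 to 390.0 CPM against 455 and 498 in the inputs. Oligodendrocyte markers were below 0 in 11 of 12 (median -2.40, 9 of them at an unadjusted p under 0.05; sum 410.3 to 3532 CPM, inputs 1857 and 4992). Astrocyte markers were below 0 in 10 of 12 (median -0.90; sum 532 to 2955 CPM, inputs 2857 and 3496). In none of these 3 lists was a marker at 0 throughout. In bulk samples fewer cells of a type and less RNA per cell cannot be told apart, and the part of any of these lists in the Gad1 and Gad2 differences was not tested.

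The cocaine comparison without withdrawal, nonescalating against saline, gave no member that passed edgeR's test. The count was 0 of 7, against 0% of 15854 genes, and 0 members had an unadjusted p under 0.05 (6.74% of all genes). DESeq2 and limma voom also called 0 members. Log2 fold changes were 0.28 for Gad1, -0.13 for Gad2, -0.40 for Slc32a1, 0.21 for Gabra2, -0.07 for Gabra4, -0.03 for Gabrb1 and -0.35 for Gabrd. The Gabrd value turned to 0.87 without saline replicate 3. Over 18 alternatives Gabrb1 kept its direction in 7, with values from -0.50 to 1.66, and Gabra4 in 11, from -0.55 to 0.83. With 3 and 5 libraries that differ among themselves several-fold, changes of this size were not detectable.

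Escalating animals were compared with nonescalating ones to ask what goes with rising cocaine intake. Gabrd had the largest difference of the 7 genes: its mean was 163 ± 154 CPM (SD, n = 2) against 35.5 ± 39.2 (n = 5), a log2 fold change of 2.22 (SE 0.84, 95% interval 0.51 to 3.93). The unadjusted p was 0.0125 and the adjusted p 0.558 by edgeR, which is not past the threshold. Of the 2 escalating libraries 1 lay above all nonescalating ones and the other among them, so the groups overlapped. Leaving out escalating replicate 2 gave 0.61 (adjusted p = 0.901). The adjusted p ranged from 0.242 to 0.901 over the alternatives.

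The transporter gene Slc32a1 differed by 0.84 on the log2 scale (SE 0.64, adjusted p = 0.690 by edgeR) in the same comparison, with 276 CPM in 1 escalating library above all nonescalating ones. Here 0 of 7 members passed, against 0% of all genes, and 1 had an unadjusted p under 0.05 (8.75% of all genes). Against saline, which shares the escalating libraries, Gabrd stood at 1.87 (SE 0.97, adjusted p = 0.622) and at 0.30 without escalating replicate 2. That comparison also had 0 of 7 past the threshold (0% of genes) and 0 at an unadjusted p under 0.05 (8.09% of genes). DESeq2 and limma voom called 0 members in both.

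After withdrawal, cocaine and saline libraries were compared with the largest groups of the study. The means were 268 ± 107 CPM (SD, n = 8) for cocaine and 315 ± 68.2 (n = 6) for saline in Gad1, and 1460.2 ± 403 and 1795 ± 724 in Gad2. For Slc32a1 they were 114 ± 76.4 and 133 ± 43.7, and for Gabra4 104 ± 43.0 and 98.9 ± 43.1. The members' log2 fold changes lay between -0.35 (Gad2) and 0.20 (Gabrd), each with an adjusted p of 1 by edgeR. None of 7 passed (0% of genes), 0 had an unadjusted p under 0.05 (3.49% of genes), and DESeq2 and limma voom called 0.

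Within library sets the withdrawal comparison gave -0.46 for Gad1 in set 1 and -0.14 in set 2, and -0.10 and -0.48 for Gad2. The sign for Slc32a1 differed between the sets, at 0.23 in set 1 and -0.53 in set 2. The 95% interval over both sets was -1.01 to 0.31 for Gad2 and -0.96 to 0.32 for Gad1. A log2 difference beyond these bounds would lie outside the intervals; smaller ones were not resolved.

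Withdrawal itself was compared with no withdrawal in each arm. In saline animals the log2 fold change of Gad1 was 0.82 (SE 0.45, adjusted p = 0.777 by edgeR), and 5 of 6 withdrawal libraries lay above all 3 saline libraries. Leaving out the libraries that stand apart, among them saline replicate 1, gave 0.42. Gabra4 showed the same layout, with 5 of 6 above all saline libraries and a log2 fold change of 0.57 (SE 0.60) that was 0.11 without them. In the cocaine arm 7 of 8 withdrawal libraries exceeded all nonescalating ones for Gabra4. The log2 fold change was again 0.57 (SE 0.53), once the library set was in the model. These library counts pool both sets, and set 2, where Gabra4 was higher, held withdrawal libraries alone. In set 1 Gabra4 per kilobase was at 3.24, 14.8 and 18.4 CPM in saline withdrawal, beside at most 14.5 in saline. It was at 3.89, 14.3 and 14.4 in nonescalating withdrawal, beside at most 11.3 in nonescalating libraries. Of all genes 1.21% in saline and 0.0631% in cocaine animals had all withdrawal libraries above all those without.

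Neither arm had a member past the threshold (0 of 7 in each, 0% of genes in each), nor at an unadjusted p under 0.05 (6.64% of genes in saline and 2.78% in cocaine animals). DESeq2 and limma voom called 0 members. In set 1 alone, where all libraries without withdrawal lie, the Gabra4 value was 0.69 in saline and 0.61 in cocaine animals, and the Gad1 value 0.96 and 0.23. The change of the cocaine effect with withdrawal, tested as an interaction, was -0.60 for Gad1 (SE 0.53) and 0.55 for Gabrd (SE 0.97), with adjusted p of 1 by edgeR for all members. There too 0 of 7 passed (0% of genes), 0 had an unadjusted p under 0.05 (4.89% of genes), and DESeq2 and limma voom called 0.

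**Figure D3:**
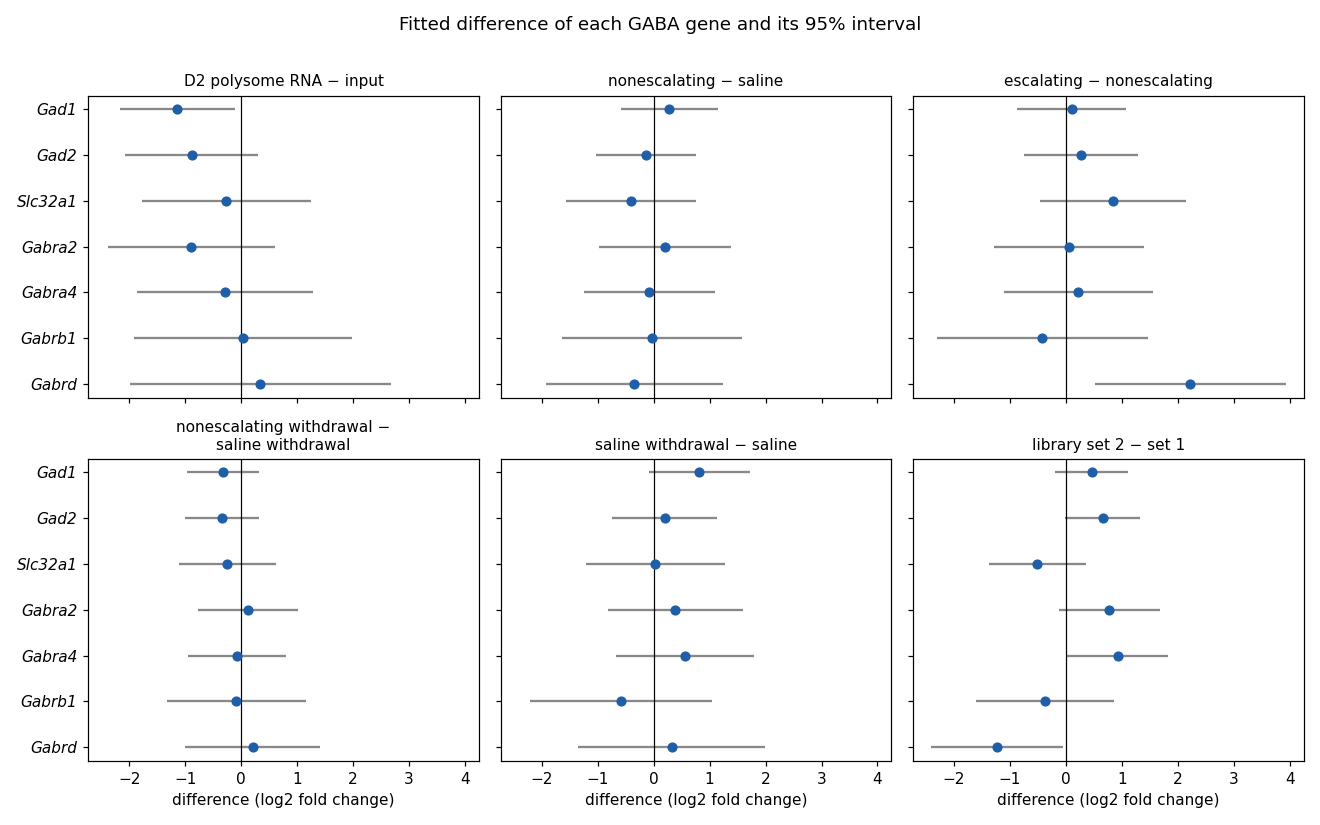
Log2 fold change (points) with 95% interval (bars) of the 7 genes in 6 comparisons, with a line at 0. Most intervals span 0; those of Gad1 against input, Gabrd in escalating against nonescalating animals, and Gabra4 and Gabrd between library sets do not, and none of these 4 passed after adjustment over all genes.

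The sets of library numbers differed for some members within the withdrawal groups. Gabra4 ran from 107 to 176 CPM in the 8 set 2 libraries and from 19.7 to 112 in the 6 of set 1, and 5 of 8 lay above all of set 1 (log2 difference 0.92, SE 0.44, adjusted p = 0.352 by edgeR). Gabrd lay the other way, at 8.74 to 50.6 CPM in set 2 and 40.4 to 82.9 in set 1, with 7 of 8 below all of set 1 (-1.23, SE 0.58, adjusted p = 0.348). Gad2 differed by 0.66 (SE 0.33, adjusted p = 0.381).

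Between sets 0 of 7 members passed, against 0.915% of genes, and 2 had an unadjusted p under 0.05 (13.5% of genes). DESeq2 and limma voom called 0 members. The summed endothelial and mural markers were 1698 to 8983 CPM in set 1 withdrawal libraries and 409 to 2223 in set 2; 13 of 13 were below 0 and 6 passed, with none at 0 in either set. The summed D2 markers were alike, 4379.6 to 9190.1 CPM in set 1 and 4599.6 to 9128 in set 2. The part of the vascular markers, or of gene models that may differ between sets, in the Gabra4 and Gabrd differences was not tested.

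Of 64 further genes listed for GABA signalling (other GABA-A subunits, GABA-B receptors, uptake and breakdown, precursor supply, chloride transport, and scaffold and trafficking), 62 were in the files and 58 were tested. In the 6 comparisons of treatment groups, in the interaction and against input, 0 passed by edgeR. Against input 17 were above 0 and 41 below (median -0.35), 3 higher and 5 lower at an unadjusted p under 0.05. Of all genes 53% were above and 47% below, and 8.27% were at such a p, with 2.22% lower. The other GABA-A subunits were mostly below input, 9 of 11 with a median of -1.14, beside -0.29 for the members.

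In each treatment comparison at most 5 of the 58 genes were higher and 4 lower at an unadjusted p under 0.05. These maxima were in escalating against nonescalating animals, where 3.44% of all genes were higher and 5.31% lower at such a p. Gabra3, encoding alpha3, had the smallest p of these genes in nonescalating against saline animals, at -1.59 (SE 0.58, adjusted p = 0.719 by edgeR). Its levels were 26.9 ± 11.4 CPM (SD, n = 5) and 79.0 ± 73.8 (n = 3). The astrocytic GABA transporter GAT-3 (Slc6a11) was at -2.59 (SE 0.96, adjusted p = 0.558) in escalating against nonescalating animals and at -2.08 (SE 0.68, adjusted p = 1) in nonescalating animals after withdrawal against none. The nonescalating libraries enter both of these, and there Slc6a11 ran from 18.9 to 197 CPM. Of 12 astrocyte markers 11 were below 0 in each of these comparisons, with medians of -0.92 and -0.57, where 54.5% and 49.5% of all genes were below 0. The astrocyte markers summed to 532 to 2955 CPM in nonescalating, 1410.5 to 2059 in escalating and 706 to 2373 in nonescalating withdrawal libraries, with none at 0 throughout. Their part in the Slc6a11 differences was not tested.

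The 1 gene of these lists that passed was Abat, GABA transaminase, the mitochondrial enzyme that degrades GABA, in the comparison of library sets. It was lower in set 2, at 43.1 to 168 CPM (mean 101.0 ± 40.9, SD, n = 8) against 270.0 to 608 (457.8 ± 140, n = 6) in set 1. The ranges did not overlap, which held for 0.618% of all genes in that direction. Set 1 libraries list 32657 genes and set 2 libraries 32531, and the part of gene models in the Abat difference was not tested. The log2 difference was -2.13 (SE 0.31, adjusted p = 0.000169 by edgeR), and the alternatives gave -2.35 to -2.01 with adjusted p at most 0.000998. The other GABA-A subunits were all above 0 between sets, 11 of 11 with a median of 0.85 where 45.9% of all genes were above, and 0 of them passed by edgeR. Gabrb2, the beta2 subunit, stood at 0.99 (SE 0.31, adjusted p = 0.119), and it passed by DESeq2 (adjusted p = 0.0224) and limma voom (0.0381).

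Across the 24 immunopurified libraries the members varied together to different degrees. These correlations are of log2 CPM, are given as a description, and are over libraries that share their depth and purity for all genes. Gad2 with Gabra4 had the highest Pearson r, 0.82 (0.78 in set 1 and 0.59 in set 2), followed by Gad1 with Gabra4 (0.80), Slc32a1 with Gabrd (0.76), Gad1 with Gad2 (0.71) and Gad2 with Slc32a1 (0.70). Over all 21 pairs r ran from -0.31 to 0.82 with a median of 0.38. Gabra2 stood partly outside this pattern, with r of -0.31 to Gabrd, -0.25 to Slc32a1 and -0.18 to Gabrb1. To Gabra4, Gad1 and Gad2 its r was 0.35, 0.27 and 0.10. Within set 2 it was negative to every other member, from -0.66 (Gad2) to -0.41 (Slc32a1). Without nonescalating replicate 4 the r of Gad2 with Slc32a1 was 0.45.

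The genes most like each member were sought among 6655 well expressed genes over the same 24 libraries. Gad2 was most like Fkbp1a (r = 0.96), Ndrg4 (0.95) and Atp5b (0.94), with the D2 neuron peptide gene Penk in place 13 at 0.93. Genes like Slc32a1 included Gapdh (0.90) and Ldhb (0.89), with Adora2a and Penk in places 25 and 32. Within set 2 alone, r was 0.88, 0.98 and 0.76 for Gad2 with Fkbp1a, Ndrg4 and Atp5b. For Slc32a1 it was 0.92 with Gapdh and 0.67 with Ldhb in that set. Gad1 was most like Nbea (0.90), Tsnax (0.88) and Sms (0.88), with r of 0.32, 0.17 and 0.45 in set 2. Gabra4 was most like Dclk1 (0.94), Celf2 (0.93) and Rbfox1 (0.92), and within set 2 these r were 0.09, 0.06 and -0.26. Gabrd was most like Nicn1 (0.84), Chrm1 (0.83) and Atp6v1a (0.82), with 0.76, 0.10 and 0.65 in set 2. Gabrb1 was close to Tro (0.82) and Hcfc1 (0.75), with 0.49 and 0.84 in set 2. Gabra2 was close to Ccdc66 (0.72), Trappc13 (0.70) and Fam178a (0.70), with 0.57, 0.27 and 0.91 in set 2.

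The members' levels varied with marker sums and with the share of unassigned reads. Gad2 and Slc32a1 had r of 0.88 and 0.84 with the summed D2 neuron markers, Gabra4 0.66, Gabrd 0.64, Gabrb1 0.55, Gad1 0.49 and Gabra2 -0.13 (n = 24). Within set 1 and set 2 these were 0.96 and 0.77 for Gad2, 0.91 and 0.59 for Slc32a1 and 0.49 and 0.53 for Gad1. In set 2 they were lower for Gabra4 (0.77 and 0.36), Gabrd (0.76 and 0.12), Gabrb1 (0.62 and 0.08) and Gabra2 (-0.20 and -0.65). The relation was not particular to D2 markers. Markers shared by D1 and D2 medium spiny neurons gave 0.90 for Gad2, 0.77 for Slc32a1, 0.77 for Gabra4 and 0.63 for Gad1. For Gabrd, Gabrb1 and Gabra2 they gave 0.62, 0.57 and -0.01. Cortical projection neuron markers gave 0.67 for Gabrb1, 0.61 for Gad2, 0.60 for Slc32a1 and 0.48 for Gabra4. For Gabrd, Gad1 and Gabra2 these gave 0.35, 0.29 and -0.20. With the summed endothelial and mural markers r was -0.80 for Gabra4, -0.77 for Gad1 and -0.73 for Gad2, and these kept their sign within each set (-0.72 and -0.61, -0.79 and -0.57, and -0.65 and -0.84). For Slc32a1 it was -0.21 over both sets but -0.57 and -0.73 within them, and for Gabrb1 -0.21 but -0.61 and -0.34. For Gabrd it was -0.09 (-0.61 in set 1 and -0.04 in set 2), and for Gabra2 -0.36, with the opposite sign inside the sets (0.12 and 0.55). With the share of reads in no feature, r was -0.86 for Gad2, -0.74 for Gad1, -0.74 for Gabra4 and 0.03 for Gabra2. Their part in the group differences above was not tested.

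**Figure D4:**
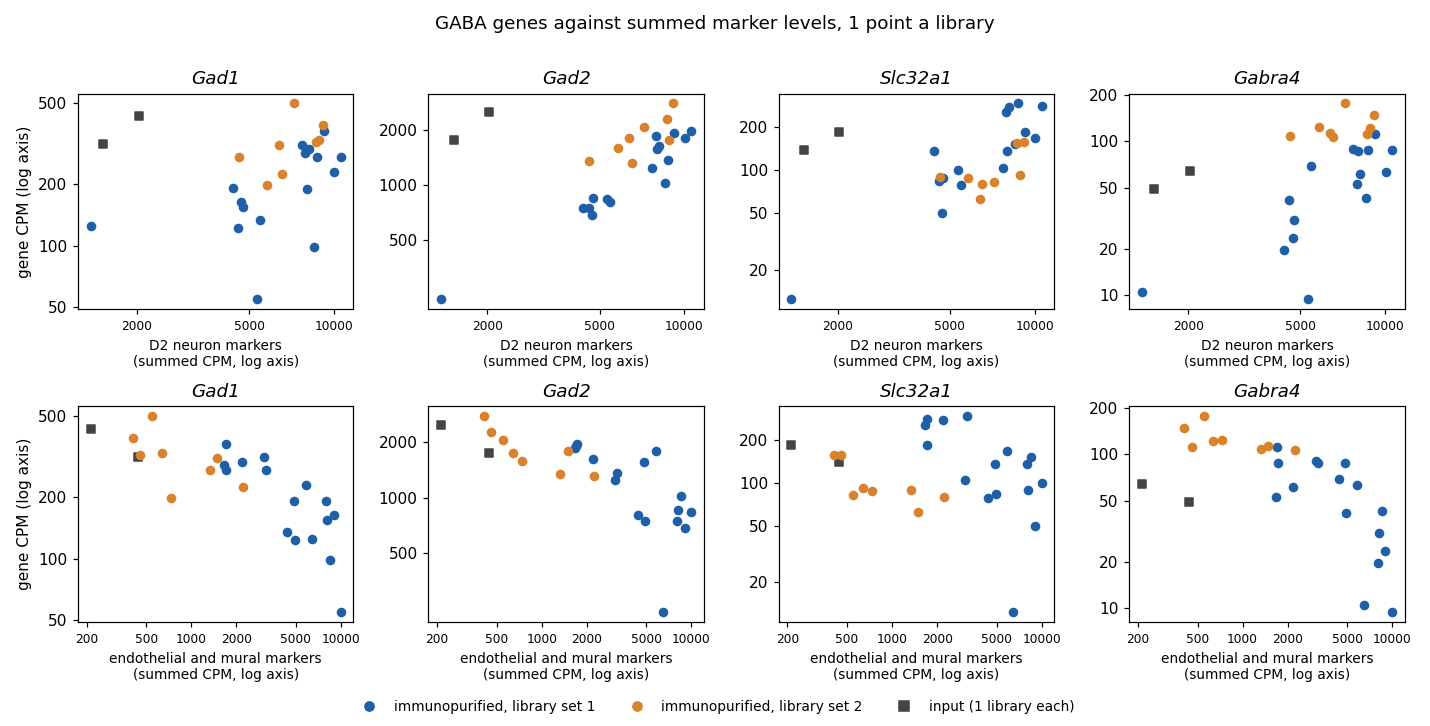
Level of Gad1, Gad2, Slc32a1 and Gabra4 in CPM against the summed CPM of 10 D2 neuron markers and of 13 endothelial and mural markers (log axes), 1 point per library. Among immunopurified libraries, Gad2 and Slc32a1 were higher where D2 markers were higher. Among the same libraries, Gad1, Gad2 and Gabra4 were lower where vascular markers were higher. The inputs (squares) lay off the first relation for Gad2, which was high there while D2 markers were low.

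The spread between libraries beyond counting error, as fitted with group and library set in the model, was smallest for the synthesis genes. The biological coefficient of variation fitted by edgeR was 43.0% for Gad1, 44.4% for Gad2, 55.3% for Gabra2, 55.7% for Slc32a1, 55.7% for Gabra4, 73.0% for Gabrd and 74.1% for Gabrb1. The median over 15854 genes was 86.2%. By highest over lowest level in the 24 immunopurified libraries the order was different. Gabra2 had the smallest range, 6.86-fold, against 9.10 for Gad1 and 11.7 for Gad2. Counts behind the lowest readings ranged from 5 for Gabrd and 13 for Gabrb1 to 255 for Gad1 and 634 for Gad2, so counting error at each gene's lowest count was 44.7%, 27.7%, 6.26% and 3.97% for these 4 genes.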

How the data were processed

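Each of the 26 files deposited by the authors gives raw counts per gene symbol. STAR 2.0.0e, HTSeq and mm10 were used, per the submitters' processing notes. For HTSeq, its version and its annotation, as well as strand handling, were "not given in the sources used here". Summary rows of HTSeq and 1 row without a gene name (at most 1 count) were dropped, and the 31735 genes found in every file were kept. Reads in no feature made up 29.7% to 62.5% of an immunopurified library and reads with several alignments 6.52% to 41.2%. Genes at a few CPM therefore rest on few counts in shallow libraries.

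Software was R 4.3.3, edgeR 4.0.16 (quasi-likelihood test), limma 3.58.1 and DESeq2 1.42.0. Dispersions were robust, scaling was by TMM, and filterByExpr used 10 as its minimum count. P-values were adjusted by Benjamini-Hochberg over all genes tested, with calls at 0.05. A single model of the 24 immunopurified libraries held terms for group and library set (library numbers up to 1825 against 1836 and above). Polysome RNA and input were compared in another model, of 8 immunopurified libraries and 2 inputs, adjusted for agent. The comparisons against saline share its 3 libraries. A standard error is the log2 fold change over the root of F. The scripts were tested on simulated data. Kilobases are lengths of all annotated exons of a gene joined, from GENCODE M21 on GRCm38. The 95% intervals are from the fit, and counting error is 1 over the root of the count, which covers counting alone.

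Named genes are the 7 members, other GABA genes past the threshold or, per comparison, with the 4 smallest p, the 3 genes most like each member, and markers; only part of these are printed, and some are not reported here. The members and lists were chosen with earlier results of these data known. Of the alternatives given in the closing section, leaving out the 3 libraries that stand apart and setting set 1 withdrawal libraries against input were chosen after seeing the data. Libraries of 1 group differed beyond sampling noise (lowest chi-square per degree of freedom 19.0 over 57 pairs), so no pair looked like 1 library given again, which does not show that the animals were separate; each counts as 1 replicate.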

Additional observations from a re-analysis of the deposited data

Results flagged for a closer look

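In 21 combinations of a gene and a group of 4 to 10 libraries, the gap between the most extreme library and its neighbour was compared with the group's range, a test that chance passes in about 1 of 20 groups. There were 2 such values. Slc32a1 was at 294 CPM in nonescalating withdrawal replicate 4 of set 1, far from the next library of the group at 137 CPM (gap over range 0.644 against a limit of 0.526, n = 8). Gabrb1 was at 87.6 CPM in saline withdrawal replicate 3 of set 1, with the next at 24.4 CPM (0.777 against 0.625, n = 6).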

How the results depend on the processing

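Over 1337 alternative values of the 7 genes, 1172 kept their direction and 165 changed sign, all of them values that had not passed, and 2 passed (Gad1 and Gad2 against input by limma voom). Genes past the threshold against input numbered 38 by edgeR, 758 by DESeq2, 1090 by limma voom, 132 without a filter, 70 with a filter at a CPM of 1, 150 with all 24 immunopurified libraries, 65 without the agent term, 189 with set 1 withdrawal libraries and 1 to 252 with 1 library left out (dropping replicates 3 or 4 of saline gave 252 or 24, dropping replicates 3 or 5 of the nonescalating group 148 or 20, and dropping either input 1, where the lone input is assumed to vary like the rest); the cause was not tested. By DESeq2 the counts were 34 for nonescalating against saline, 143 for escalating against saline, 225 for escalating against nonescalating, 2 for cocaine against saline after withdrawal, 30 for saline withdrawal against saline and 11 for the interaction, each 0 by edgeR. For escalating against nonescalating limma voom gave 8 and set 1 alone 2; leaving out 1 library gave 0 to 2 there and 0 to 1 for escalating against saline. Between library sets the count was 145 by edgeR, 666 by DESeq2, 474 by limma voom, 364 with the groups compared alone and 50 to 203 with 1 library left out, among them 77 without saline withdrawal replicate 1 of set 1, 50 without nonescalating withdrawal replicate 1 of set 1, 91 without saline withdrawal replicate 3 of set 2 and 94 without nonescalating withdrawal replicate 4 of set 2. With the replicate number as a block the count against input was 257 and Gad1 stood at -1.53 (adjusted p = 0.369, edgeR); the block could not be fitted between sets. Same-numbered libraries share only a number in the labels. Their deviations correlated at -0.13 to 0.27 over 25 pairs (median 0.08), 10 of them over 0.1. The 90 other pairs lay at -0.29 to 0.25 (median -0.01), and 12 of 21 libraries correlated best with their own number. Whether a number marks a shared block was not tested. Precision is limited by 2 inputs, 2 escalating libraries and 1.54 M counts in the shallowest library.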
